A study of Mus musculus with 2 samples.

Results

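The co-inhibitory receptors of T cells were examined as 10 genes, Ctla4, Pdcd1, Lag3, Havcr2, Tigit, Cd160, Btla, Cd96, Cd226 and Cd244, taken by symbol among 24346 listed genes. Cd226 is the activating counterpart in its receptor family and was kept with the inhibitory genes. All 10 symbols were listed in both libraries. The data are bulk RNA-seq of GFP+CD4+ T cells (Tregs) from the spleen and the lung of FDG mice (Foxp3-DTR-GFP), in which GFP and the diphtheria toxin receptor are expressed from the Foxp3 locus. The mice, 10 to 16 weeks old by the study's protocol, received 50 μg of bleomycin (BLM) intratracheally, and the cells were sorted at day 15. Each tissue gave 1 library, made from the pooled cells of 3 animals, and both libraries came from BLM-treated animals, so that the comparison is between spleen Tregs and lung Tregs after BLM and not between treated and untreated Tregs.

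Co-inhibitory receptors lower the response of T cells that meet antigen. CTLA-4 competes with CD28 for CD80 and CD86 on antigen-presenting cells and is used by Tregs to remove these ligands, whereas PD-1 recruits the phosphatase SHP-2 when it binds PD-L1 or PD-L2. TIGIT and CD96 share the ligand CD155 with the activating receptor CD226, BTLA and CD160 share the ligand HVEM, and several of these receptors mark activated or chronically stimulated T cells.

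With 1 library per tissue, no difference had a replicate check and no p-value was given. Expression was measured as FPKM, reads scaled to transcript length and library size, and ratios were taken as lung over spleen after values under 0.1 FPKM had been set to 0.1. Reads behind the FPKM were estimated, and their 95% counting intervals hold for counting error alone, since PCR duplicates could not be removed. The estimated reads summed to 9862960 for spleen Tregs and to 12879600 for lung Tregs. Foxp3 was at 18.7 FPKM in spleen Tregs and 41.8 in lung Tregs. The 10 T cell genes were at 114 to 912 FPKM in spleen and 94.7 to 1103 in lung. Their median log2 ratio was -0.19. Of 6 Treg genes, 2 were over 2-fold higher in lung (Foxp3 and Capg) and 1 was over 2-fold lower (Lrrc32). Counted at any size, 2 of the 6 were higher and 4 were lower in lung, with a median log2 ratio of -0.30. Genes of other cells were also listed in both sorts. The summed FPKM of 7 macrophage genes was 483 in spleen and 25416 in lung, mostly Lyz2, that of 5 B cell genes was 239 and 123, that of 9 NK cell genes was 165 and 272, that of 5 dendritic cell genes was 8.07 and 15.8, that of 5 mast cell genes was 2.63 and 2.62, and that of Cd8a and Cd8b1 was 24.0 and 86.9. Of 5 genes of gamma-delta T cells 2 were listed, and Cd163l1 was at 0.0297 and 3.40 FPKM.

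Ctla4 and Pdcd1 dominated the receptor transcripts of lung Tregs, while Cd96, Tigit, Btla, Cd226, Cd160 and Lag3 took a larger part in spleen. Ctla4 had the largest share in both libraries. Of the 10 genes, 4 were over 2-fold higher in lung (Pdcd1, Cd244, Havcr2 and Ctla4), against 17.8% of the 12094 genes that reached 1 FPKM in either library and 11% of all listed genes. Of the others, 2 were over 2-fold lower (Lag3 and Cd160), against 15.5% and 11.7%. Cd96 lay on the threshold, and Tigit, Cd226 and Btla were within 2-fold. The median log2 ratio of the 10 genes was 0.27, compared with 0.03 for all genes that reached 1 FPKM. The summed FPKM of the 10 genes was 582 in spleen and 1203 in lung, which is 2.07-fold higher on the deposited scale. Rescaling to TPM multiplies the lung values by 0.741, so this fold depends on the scaling. Foxp3 itself was 2.23-fold higher in lung. In bulk samples, more cells that express a gene and more RNA per cell cannot be told apart.

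**Figure D1:**
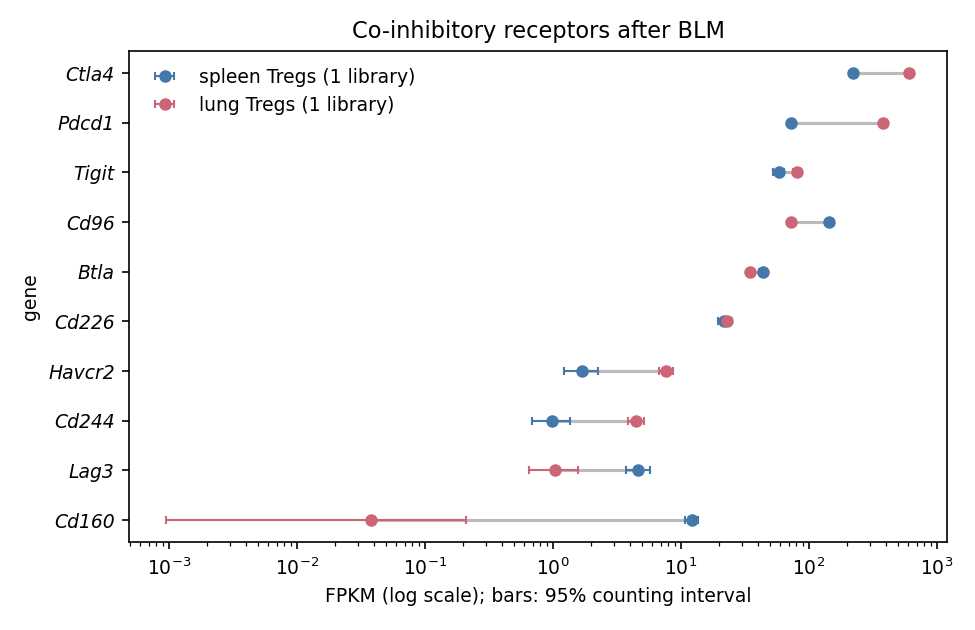
FPKM of the 10 genes in the splenic (blue) and lung (red) library on a log axis, with 95% counting intervals as bars and a grey line joining both values. Ctla4 was the highest in both libraries, at 221 and 601 FPKM, and Cd160 was at 12.2 FPKM in spleen Tregs and 0.0377 in lung Tregs.

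The order of the levels changed between the tissues. In spleen Tregs the order was Ctla4, Cd96, Pdcd1, Tigit, Btla, Cd226, Cd160, Lag3, Havcr2 and Cd244, and in lung Tregs it was Ctla4, Pdcd1, Tigit, Cd96, Btla, Cd226, Havcr2, Cd244, Lag3 and Cd160. Of the 45 pairs of genes, 7 stood in the opposite order in lung, 4 of them with Lag3 or Cd160 on one side and Havcr2 or Cd244 on the other. The counting intervals of neighbours did not overlap except those of Havcr2 and Cd244 in spleen and of Tigit and Cd96 in lung. For both of these pairs the interval of the ratio itself lay above 1, at 1.09 to 2.76 for Havcr2 to Cd244 and 1.02 to 1.22 for Tigit to Cd96. As a share of the summed FPKM, Ctla4 was 38.0% in spleen and 49.9% in lung, Pdcd1 was 12.6% and 31.4%, and Cd96 was 24.9% and 6.02%. These shares do not depend on the scaling between libraries.

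**Figure D2:**
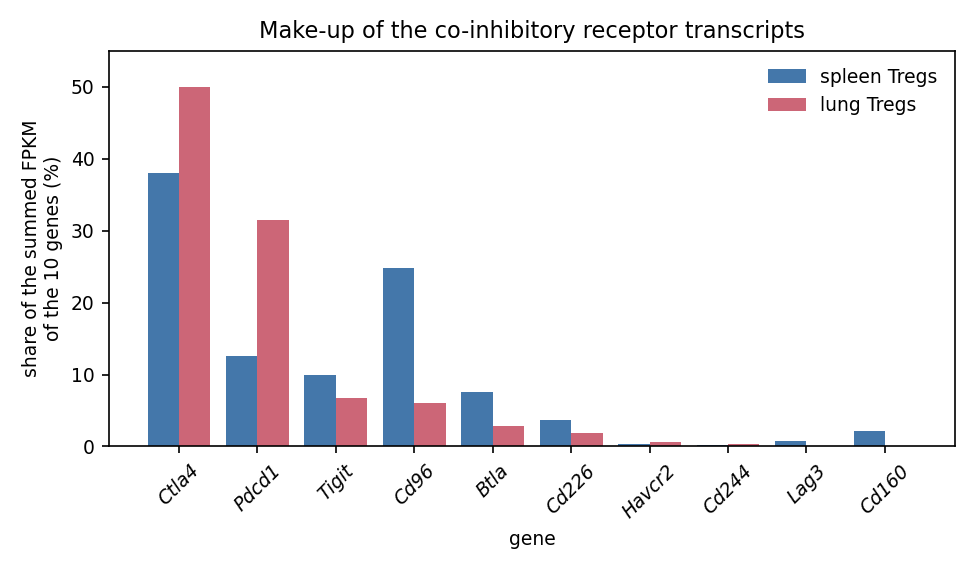
Share of each gene in the summed FPKM of the 10 genes, in percent, in the splenic (blue bars) and lung (red bars) library. Ctla4 and Pdcd1 together took most of the lung sum, while the share of Cd96 was 24.9% in spleen and 6.02% in lung.

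Ctla4, which encodes the CD28 competitor CTLA-4, was at 221 FPKM in spleen Tregs and 601 in lung Tregs, ranking 421 and 212 among all genes. The difference was 2.72-fold, a log2 ratio of 1.44 with a counting interval of 1.38 to 1.51 at its median transcript length. The gene lies on chromosome 1 of GRCm38 (mm10) from 60887000 to 60915832 on the plus strand. Its RefSeq transcripts of 1933 and 614 nt, of 4 and 3 exons, were not counted separately, so its reads are known only as a range, 2867 to 12200 in lung. Cd28, the activating receptor for the same ligands, was at 91.9 FPKM in spleen Tregs and 114 in lung Tregs, 1.24-fold higher. The ratio of Ctla4 to Cd28 within a library was thus 2.40 in spleen and 5.28 in lung. Measured against Foxp3, the gene that defines Tregs and drives GFP, Ctla4 was 11.8 times as high in spleen and 14.4 times in lung, which is 1.22-fold higher. Measured against Cd4, Ctla4 was 2.98-fold higher in lung, and against Cd3e it was 3.78-fold higher. Cd3e had the lowest ratio of the 10 T cell genes, a log2 ratio of -0.48. Icos, which lies 62.1 kb from Ctla4 and encodes a further costimulatory receptor of the family, was at 59.2 FPKM in spleen Tregs and 248 in lung Tregs, 4.18-fold higher.

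Pdcd1, which encodes PD-1, was at 73.2 FPKM in spleen Tregs and 378 in lung Tregs and moved from rank 1374 to rank 340. It had the highest ratio of the 10 genes, 5.17-fold, with a log2 ratio of 2.37 and a counting interval of 2.28 to 2.46. Its single RefSeq transcript, with 5 exons and 1930 nt, maps to chromosome 1 (94038305 to 94052553, minus strand), and about 1306 reads in spleen and 7661 in lung stood behind the values. Against Foxp3 it was 2.32-fold higher in lung, against Cd4 it was 5.65-fold higher and against Cd3e it was 7.18-fold higher. Among the 12094 genes that reached 1 FPKM, 1057 had a higher ratio than Pdcd1. CD8 T cells can also express PD-1, and Cd8a (4.13 and 12.2 FPKM) and Cd8b1 (19.9 and 74.8 FPKM) were higher in the lung library as well, 2.94-fold and 3.76-fold. Their part in the result was not tested.

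To show the start regions of genes that moved in opposite directions, the windows from 250 bases before to 50 bases after the annotated start of Ctla4 and Pdcd1, the highest genes in lung, and of Cd96, the highest of the genes that were lower in lung, are given from RefSeq on GRCm38.p6. The RefSeq start of Ctla4 lies downstream of the first base of the GENCODE gene given above, which belongs to a transcript with no coding sequence. Capitals mark the letters GGAAA on either strand, the core bound by Rel and NFAT factors. The Ctla4 window is chr1:60908775-60909074 on the plus strand, the Pdcd1 window is chr1:94052504-94052803 on the minus strand and the Cd96 window is chr16:46120199-46120498 on the minus strand.
Ctla4: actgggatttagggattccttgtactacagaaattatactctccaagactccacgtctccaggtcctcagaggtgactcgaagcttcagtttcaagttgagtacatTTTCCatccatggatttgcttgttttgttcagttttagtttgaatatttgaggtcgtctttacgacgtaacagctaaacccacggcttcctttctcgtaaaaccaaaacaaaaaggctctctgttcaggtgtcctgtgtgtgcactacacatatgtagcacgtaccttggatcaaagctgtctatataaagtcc
Pdcd1: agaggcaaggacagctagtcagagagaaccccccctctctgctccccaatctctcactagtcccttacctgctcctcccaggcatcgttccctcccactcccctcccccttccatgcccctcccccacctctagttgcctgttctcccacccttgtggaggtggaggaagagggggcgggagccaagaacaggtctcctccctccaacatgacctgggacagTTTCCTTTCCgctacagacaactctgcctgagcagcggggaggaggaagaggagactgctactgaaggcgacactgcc
Cd96: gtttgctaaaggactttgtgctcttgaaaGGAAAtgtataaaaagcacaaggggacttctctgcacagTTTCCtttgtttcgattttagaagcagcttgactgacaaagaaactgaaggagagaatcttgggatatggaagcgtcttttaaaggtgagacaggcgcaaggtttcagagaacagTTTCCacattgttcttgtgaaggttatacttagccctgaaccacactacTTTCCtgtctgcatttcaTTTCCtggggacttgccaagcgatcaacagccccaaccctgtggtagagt

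The Ctla4 window held 1 match to GGAAA, the Pdcd1 window 2 adjacent matches and the Cd96 window 5. Among the other members with a window, Tigit and Cd244 held 2 matches each, Havcr2 and Btla held 0, and Cd160, with a window at each of 2 starts, held 0 at one and 1 at the other. Of all 32851 windows of this length, 61.3% held the letters. The AP-1 letters TGANTCA, on either strand, were found in Havcr2 and Cd244, once in each, and in 7.81% of all windows, and the forkhead letters GTAAACA were in 0 of the members' windows and in 3.65% of all. Among the members with a window, Cd96, lower in lung, held the most GGAAA matches. Whether such matches bear on the direction of the difference was not tested. Lag3 and Cd226 had no window here.

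Tigit, Cd96 and Cd226 bind the same ligand, CD155, with opposite effects of TIGIT and CD226 on the T cell, and their balance differed between the libraries. Tigit was at 58.1 FPKM in spleen Tregs and 80.8 in lung Tregs, a log2 ratio of 0.47 (interval 0.30 to 0.65). Cd226 was at 21.7 and 22.9 FPKM, a log2 ratio of 0.07. Its counting interval at the median transcript length, -0.13 to 0.28, covered both directions. Rescaling to TPM moved the log2 ratio of Cd226 to -0.36, outside that interval. Cd96 was at 145 FPKM in spleen Tregs and 72.4 in lung Tregs, 1.9999-fold lower and so just inside the threshold, with an interval of the log2 ratio of -1.09 to -0.91.

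The ratio of Tigit to Cd226 within a library was 2.67 in spleen (interval 2.32 to 3.08) and 3.53 in lung (3.13 to 3.99), and that of Cd96 to Cd226 was 6.66 in spleen (5.98 to 7.43) and 3.16 in lung (2.85 to 3.52). Tigit was at 0.402 of the level of Cd96 in spleen and at 1.12 times its level in lung. Tigit and Cd96 therefore stood in opposite order in the libraries, narrowly so in lung, where the interval of their ratio was 1.02 to 1.22. Both stayed above Cd226 in each library, and none of these ratios depends on the scaling. The intervals with Cd226 hold at its median transcript length alone. Over its transcript lengths its splenic value stood for 232 to 514 reads. Tigit and Cd96 lie on chromosome 16, from 43648867 to 43664146 and from 46035657 to 46120251, both on the minus strand, and Cd226 lies on chromosome 18. Cd96 is also expressed by NK cells. The NK cell genes Ncr1 (2.69 FPKM in spleen and 0 in lung) and Eomes (1.68 and 0.0246) were lower in the lung library, Klra8 was at 0.000576 and 0, and Nkg7 (134 and 236) was higher, and their part in the difference of Cd96 was not tested.

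Cd160, which encodes a receptor for HVEM held in the membrane by a lipid anchor and known from NK cells, intraepithelial lymphocytes and memory CD8 T cells, had the lowest ratio of the 10 genes. It was at 12.2 FPKM in spleen Tregs, ranking 5961, and at 0.0377 in lung Tregs, ranking 13387. At its median transcript length the lung value stood for about 1 read and the splenic value for about 285. Over its transcript lengths the splenic value stood for 116 to 302 reads. With the floor of 0.1 FPKM the gene was 122-fold lower in lung and 108-fold lower when fewer than 3 reads were taken as 3. Without the floor the log2 ratio was -8.34, and the counting interval of -13.65 to -5.85 shows how little a single read fixes its size. Cd160 was the only one of the 10 genes over 20-fold lower, against 2.35% of the genes that reached 1 FPKM and 1.17% of all listed genes, and 0 of the 10 genes were over 20-fold higher, against 3.27% and 1.62%. Only 50 of the 12094 genes had a lower ratio.

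Of the 9 NK cell genes, Ncr1 and Eomes were over 2-fold lower in lung like Cd160, with about 35.0 and 52.4 reads in spleen and 0 and 0.871 in lung. Klre1 (2.33 and 1.33 FPKM) and Klra4 (0.275 and 0.225) were lower by less. Higher in lung were 4 of the 9, Nkg7, Gzma (13.1 and 19.5 FPKM), Prf1 (6.38 and 9.80) and Klrb1c (4.54 and 5.48), each by under 2-fold. The part of NK cells in the value of Cd160 was not tested. Exons of Cd160, on the minus strand of chromosome 3 from 96798763 to 96829351, share 68 of 2642 bases with the antisense gene Pdzk1, which was at 1.61 and 2.55 FPKM. Whether the reads were assigned by strand is not given in the sources used here.

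Btla, the other receptor for HVEM, was at 43.8 FPKM in spleen Tregs and 34.9 in lung Tregs, a log2 ratio of -0.33 with an interval of -0.46 to -0.20. BTLA is abundant on B cells, and all 5 B cell genes were lower in lung, Cd79a at 80.4 and 30.4 FPKM and Ms4a1 at 37.6 and 17.4. The part of B cells in the difference of Btla was not tested. Tnfrsf14, which encodes HVEM, was at 8.87 FPKM in spleen Tregs and 12.8 in lung Tregs. In the lung library the HVEM receptor transcripts listed were thus almost wholly those of Btla, while in spleen Cd160 stood at 12.2 FPKM beside 43.8 of Btla.

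Lag3, which encodes a receptor for MHC class II related to CD4, was at 4.62 FPKM in spleen Tregs and 1.04 in lung Tregs, 4.44-fold lower, with about 85.9 and 22.0 reads. The log2 ratio was -2.15, and the whole interval, -2.90 to -1.46, was over 2-fold lower. Lag3 thus moved against Pdcd1, with which it is often measured together as a mark of chronic stimulation. Cd4, which lies 16.1 kb from Lag3 on chromosome 6, was at 195 FPKM in spleen Tregs and 179 in lung Tregs. Of the genes for the ligands of LAG-3, the MHC class II genes were all higher in lung, H2-Aa at 294 FPKM against 803 (2.73-fold), H2-Ab1 at 486 against 1195 (2.46-fold) and H2-Eb1 at 120 against 283 (2.35-fold). Lgals3 (galectin-3) was 20.1-fold higher, at 22.6 and 453 FPKM. Fgl1 was listed at 0 in spleen and at 0.0932 FPKM in lung, about 0.999 reads.

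Havcr2 and Cd244 were low in spleen Tregs and higher in lung Tregs by nearly the same factor. Havcr2, which encodes TIM-3, was at 1.69 FPKM in spleen Tregs and 7.67 in lung Tregs, 4.54-fold higher, with a log2 ratio of 2.18 (interval 1.71 to 2.68) from about 43.9 and 227 reads. Cd244, which encodes the SLAM family receptor 2B4, was at 0.978 and 4.45 FPKM, 4.55-fold higher, with a log2 ratio of 2.19 (interval 1.67 to 2.74) from about 36.0 and 186 reads. Their levels in lung were well under those of Ctla4 and Pdcd1, at 0.637% and 0.370% of the summed FPKM.

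TIM-3 is also made by macrophages and dendritic cells and 2B4 by NK and some myeloid cells. All 7 macrophage genes were higher in lung, by factors that ranged widely. Csf1r (43.8 and 50.1 FPKM) was 1.14-fold and Adgre1 (14.6 and 24.3) 1.66-fold higher. The other 5 were over 2-fold higher, namely Itgam (1.45 and 5.85 FPKM) by 4.05-fold, Fcgr1 (1.13 and 5.10) by 4.50-fold, Mertk (3.14 and 15.0) by 4.76-fold, Cd68 (43.0 and 368) by 8.57-fold and Lyz2 (376 and 24947) by 66.3-fold. Dendritic cell genes differed in direction, with Zbtb46 at 1.70 and 11.5 FPKM and Flt3 at 1.43 and 0.172, and Clec9a was at 0.642 FPKM in spleen Tregs and listed at 0 in lung Tregs. The part of macrophages in the values of Havcr2 and Cd244 was not tested.

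**Figure D3:**
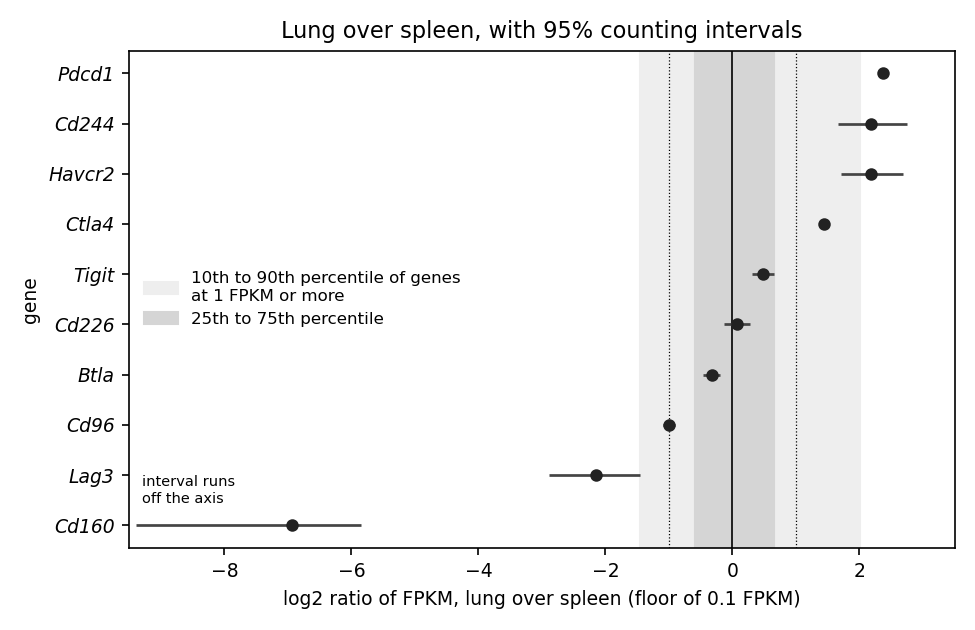
Log2 ratio of FPKM, lung over spleen, for the 10 genes (points) with 95% counting intervals (lines), over the 10th to 90th (light grey) and 25th to 75th (dark grey) percentiles of the 12094 genes at 1 FPKM or more, with dotted lines at 2-fold. Pdcd1, Havcr2 and Cd244 lie above the 90th percentile and Lag3 and Cd160 below the 10th.

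The SLAM receptors act through small adapters, SAP in T cells and EAT-2 in NK and myeloid cells. Sh2d1b1, which encodes EAT-2, was at 2.05 FPKM in spleen Tregs and 22.7 in lung Tregs, 11.1-fold higher, whereas Sh2d1a, which encodes SAP, was at 157 and 189. Of 16 genes of signalling and trafficking of these receptors, 1 was over 2-fold higher (Sh2d1b1) and 0 lower, against 17.8% and 15.5% of genes that reached 1 FPKM. Ranked by the higher of both libraries, the most abundant of the 16 were Prkch (225 and 190 FPKM), Ptpn6, which encodes SHP-1 (211 and 150), Sh2d1a and Fyn (144 and 103). The median log2 ratio of the list was -0.03. Cd48, which encodes the ligand of 2B4 and lies 72.3 kb from Cd244 on chromosome 1, was at 481 FPKM in spleen Tregs and 489 in lung Tregs. Slamf7 (4.45 and 9.83 FPKM) was over 2-fold higher among the SLAM receptors of the same gene cluster, while Ly9 (58.1 and 40.2), Slamf6 (97.9 and 87.1), Slamf1 (45.4 and 60.6) and Cd84 (64.4 and 88.6) were not.

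The genes for the ligands of the 10 receptors were compared in the same libraries, in which Pvrl3 and Clec4g were listed at 0 in both. Of 19 ligand genes, 15 reached 1 FPKM in either library. Of these, 8 were over 2-fold higher in lung and 1 was lower, against 17.8% and 15.5% of all genes that did. These 15 genes had a median log2 ratio of 1.06, and all 19 had one of 0.43. For CTLA-4, Cd86 was at 34.1 FPKM in spleen Tregs and 45.9 in lung Tregs, and Cd80 at 2.46 and 5.52, 2.25-fold higher. For PD-1, Cd274 (PD-L1) was at 25.5 and 29.4 FPKM and Pdcd1lg2 (PD-L2) at 6.56 and 13.7, 2.09-fold higher, so that Pdcd1 was 2.87 times as high as Cd274 in spleen and 12.9 times in lung. For TIM-3, Ceacam1 was 3.79-fold higher, at 1.71 and 6.48 FPKM, Lgals9 (285 and 328) was 1.15-fold and Hmgb1 (290 and 301) 1.04-fold higher.

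The ligand gene over 2-fold lower in lung was Pvr, which encodes CD155, at 18.1 FPKM in spleen and 8.56 in lung, a log2 ratio of -1.08. Pvrl2, which encodes the further ligand nectin-2, was 6.18-fold higher, at 0.315 and 1.95 FPKM from about 6.98 and 49.0 reads. Pvrl1 was at 0.119 FPKM in spleen Tregs and 0.0175 in lung Tregs. Antigen-presenting cells express MHC class II, CD80, CD86 and galectin-3 strongly, and the macrophage genes given above were higher in the lung library. The part of such cells in the ligand values was not tested.

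**Figure D4:**
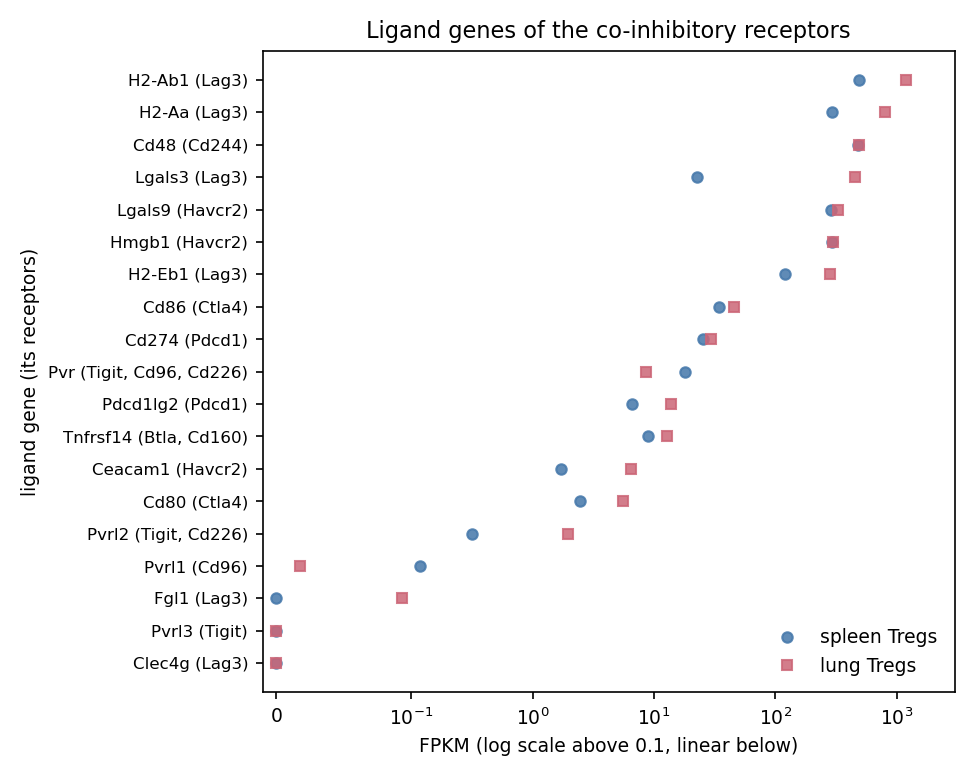
FPKM of the 19 ligand genes in the splenic (blue circles) and lung (red squares) library, on an axis that is logarithmic above 0.1 FPKM and linear below, with the receptors of each ligand in brackets. Lgals3 shows the widest gap among the abundant genes, at 22.6 and 453 FPKM, and Pvr is lower in lung.

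Other inhibitory receptors were compared with the 10 genes. Of 11 such genes 10 were listed. Of these, 4 were over 2-fold higher in lung and 0 lower, against 17.8% and 15.5% of genes that reached 1 FPKM. Lilrb4a, an inhibitory receptor of myeloid cells that activated T cells can also express, was at 24.5 FPKM in spleen Tregs and 283 in lung Tregs, 11.6-fold higher. Klrg1, a receptor for cadherins found on differentiated Tregs, was at 34.2 and 169, 4.93-fold higher, close to Pdcd1. Cd300a was at 9.01 and 22.8 FPKM and Klrd1 at 6.74 and 13.7. Cd5, which dampens T cell receptor signals, was the most abundant in spleen, at 252 FPKM, and was at 172 in lung. 4632428N05Rik, the gene of VISTA, was at 49.2 and 42.1 FPKM. The median log2 ratio of the list was 0.74.

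The direction of most members did not depend on how the libraries were scaled. Rescaling to TPM lowered the log2 ratios of 9 of the 10 genes by 0.43, and rescaling to 10 T cell genes raised them by 0.19. The ratio of Cd160 did not move, since its lung value stayed at the floor. Ctla4, Pdcd1, Havcr2 and Cd244 were over 2-fold higher and Lag3 and Cd160 over 2-fold lower in each of the 11 settings tried. These settings include the main one, and the floors, the 1 FPKM filter and the minimum of 3 reads left most members unchanged. Ctla4 lay between 1.01 and 1.63 on the log2 scale and Pdcd1 between 1.94 and 2.56. Cd226 changed sign, between -0.36 and 0.26, and Tigit ranged from 0.04 to 0.66. Cd96 was over 2-fold lower in 3 of the 11 settings and between -1.43 and -0.81.

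**Figure D5:**
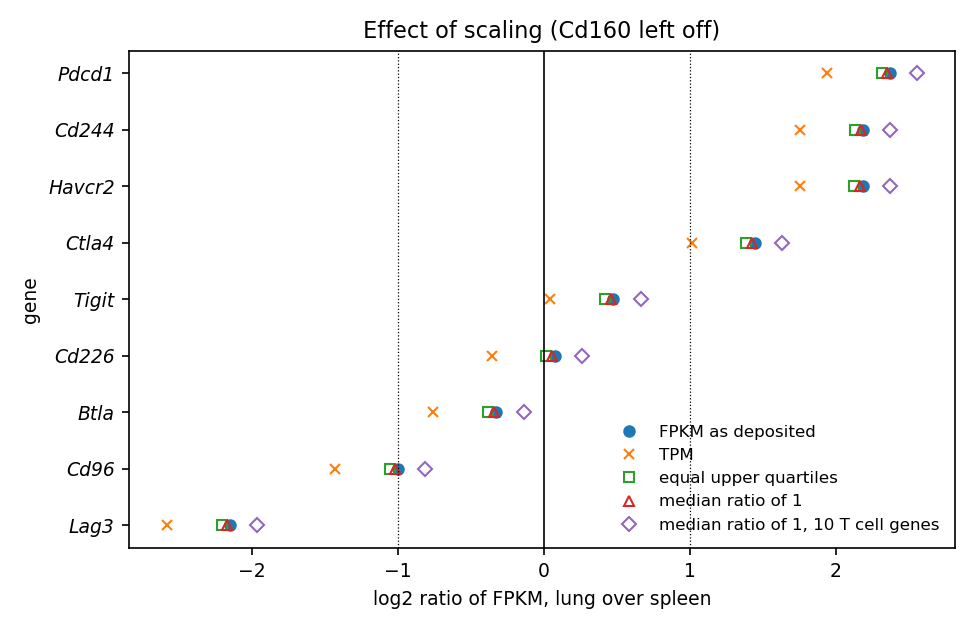
Log2 ratio of FPKM, lung over spleen, for 9 of the 10 genes under 5 scalings (symbols), with Cd160 left off and dotted lines at 2-fold. Scaling moves all genes together, and Cd226 is the gene whose sign changes.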

How the data were processed

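RNA of GFP+CD4+ cells, pooled from 3 mice for each tissue, was made into 1 SMART-Seq HT library of spleen Tregs and 1 of lung Tregs and read from 1 end for 75 bases. Per the submitters' notes, the authors used TopHat2 (2.1.1) with Bowtie2 (2.2.8) and SAMtools (0.1.18) on mm10, and the deposited FPKM came from Cuffdiff (2.2.1). The annotation, the options, a filter and any scaling between the libraries are not given in the sources used here. This kind of library adds no molecular identifiers, so PCR copies count as reads. Lung was digested with Liberase TM and DNase I and dissociated by machine, and for other tissues the paper refers to an earlier description. Effects of cell preparation and of tissue cannot be told apart here.

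Members were matched by symbol. The members and the lists of ligands, signalling genes, transcription factors, related receptors and cell markers were chosen with earlier results of these data known. Named from each list were the 4 genes highest in either library, genes over 2-fold apart at 1 FPKM or more, and direct partners of members; cell marker lists were given by their sums, with genes named beside the results they bear on. Cd226 and Cd28, Foxp3, Cd3e and Cd4 served as references within a library.

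FPKM under 0.1 were set to 0.1 and lung was divided by spleen. Reads were estimated from the median length of GENCODE M21 transcripts (GRCm38) tied to RefSeq, known for 97.2% of symbols, with fragments of 200 ± 80 bases. The value of 1 read was the product of FPKM and effective length that most genes share, 0.0964 FPKM in spleen and 0.0849 in lung at 1 kb. Of genes with 1 transcript length and few reads, 74.3% and 76.7% then lay within 0.1 of a whole read. Intervals are exact (Poisson for levels, Clopper-Pearson for ratios) at 95% for the estimated reads. For genes with several transcript lengths, such as Ctla4, Cd160, Btla and Cd226, they hold at the median length alone. Fewer reads, as at a shorter length, would widen them. With 1 library per group no test was run. Other floors, pseudocounts, scalings and folds were tried. The steps were tested on simulated libraries, in which 100 genes raised 8-fold and 100 lowered 8-fold were all found past 2-fold. The changed genes had at least 100 expected reads. The simulation therefore says nothing about changes near 2-fold or about members with few reads, such as Cd160 and Lag3. The tools were Python 3.11.15, scipy 1.17.1, numpy 2.4.6, matplotlib 3.10.9 and pandas 2.3.3.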

Additional observations from a re-analysis of the deposited data

How the results depend on the processing

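The counts of 4 genes over 2-fold higher and 2 over 2-fold lower in lung were within 1.5 times of these values with every floor, pseudocount, scaling, filter and fold tried. The lower count became 3, through Cd96, after rescaling to TPM, to equal upper quartiles or to a median ratio of 1, and with a fold of 1.5, and the higher count became 3 with a fold of 4. The median log2 ratio of the 10 genes, 0.27, turned to -0.16 after rescaling to TPM, by construction, since that lowers the ratios of all genes above the floor alike, and was between 0.22 and 0.46 under the other settings. Of 100 values of single members under these settings, 85 stayed within the counting interval and 15 moved out of it. Of the 15, 1 changed sign, that of Cd226 in TPM. Many of the 85 could not move. The filter at 1 FPKM kept all 10 genes, and the floors and the minimum of 3 reads left most members as they were. Rescaling did not move Cd160, whose lung value stayed at the floor. Ratios of Tigit and Cd96 to Cd226 and of Ctla4 to Cd28 stayed within their counting intervals with a pseudocount of 1 FPKM. No paired analysis was possible because each tissue has 1 library and the labels give no replicate numbers. Depth limits Cd160 and, less, Lag3 in lung.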

Other observations

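Transcription factors known to act on these receptor genes were also compared. In lung Tregs 6 of 14 such genes exceeded a 2-fold higher level and 1 a lower one, with a median log2 ratio of 0.73. Nr4a3 was at 4.78 and 17.0 FPKM, Nr4a2 at 3.30 and 8.96 and Irf4, which effector Tregs need, at 6.57 and 16.2. Nr4a1, an early gene of T cell receptor signals, was at 96.2 FPKM in spleen Tregs and 213 in lung Tregs, and Batf, an AP-1 factor of effector Tregs, was at 117 and 244. Prdm1, which encodes Blimp-1, was at 5.79 and 16.03 FPKM, 2.77-fold higher. Tcf7, a factor of resting T cells, was the most abundant in spleen, at 273 FPKM, and was at 143 in lung. Eomes was lower, at 1.68 and 0.0246 FPKM. Nfatc1 was at 93.5 and 53.0 FPKM, Tox at 49.98 and 52.3. The part of cell preparation in these values was not tested.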
